A study of Mus musculus with 24 samples.

Results

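Low-cycling haematopoietic stem cells (HSCs) that yielded many RNA molecules were compared, at equal depth, with low-cycling HSCs from the same sort plate that yielded few. The low-cycling cells were those with the number 2, 3, 4 or 5 in the grouping column of the deposited index-sort record, a column with no stated meaning (called the index group here). They were 869 of the 1430 recorded cells, with 163, 235, 232 and 239 on sort plates 2, 3, 4 and 5. The total of unique molecular identifiers (UMIs, one per captured RNA molecule) of each well was taken. On each plate, the RNA-rich side was the 25% of members with the most UMIs, and the RNA-poor side the 25% with the fewest. Each side held 215 cells (40, 58, 58 and 59 per plate). The cells between the sides entered only the description by quartile.

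All cells were bone marrow HSCs of 1 mouse strain, -60/DR5-TA-RA-CFP, which carries a cyan fluorescent protein (CFP) reporter of retinoic acid signalling. They were sorted as lineage-negative, Sca-1 and Kit positive cells that were CD150 positive and CD48 negative, with mixed CFP status and no treatment named in the labels, and RNA from single wells of 384-well plates was barcoded and sequenced. The labels list 8 single-cell samples, each a batch, and the tables do not tie wells or plates to these samples. Both sides therefore hold cells of an unstated mix of mice. The 4 sort plates were taken as technical replicates of 1 pooled collection. This is an assumption, and whether plates differ in batch or in mice is not stated. SDs and permutation p-values rest on the spread between plates (n = 4) and not between mice. The errors and p-values of the tests per gene (edgeR) use a spread shared by all genes. They do not measure each gene's own spread between plates. A stricter reading takes the whole table as 1 sample, for which the values per side stand without a test.

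Adult HSCs are mostly quiescent, and quiescent cells are known for a small amount of RNA and little protein synthesis. Leaving quiescence involves growth before DNA replication, and growing cells make more ribosomes. The messenger RNAs of ribosomal proteins are short, abundant and stable, and many start with a run of pyrimidines through which the growth-controlling kinase mTOR regulates their translation.

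The sides were chosen by the UMI totals, so these are given as a description only. The median cell held 1631.5, 1970.5, 1830 and 1821 UMIs on the RNA-rich side of plates 2, 3, 4 and 5, and 725, 838.5, 693 and 796 UMIs on the RNA-poor side. The mean of the plate medians was 1813 ± 139 (SD, n = 4 plates) against 763 ± 66.2, a ratio of 2.38 ± 0.18. At the upper border, the RNA-rich cell with the fewest UMIs had 1392 on plate 2 and the highest middle cell 1387. At the lower border, the RNA-poor cell with the most UMIs had 859 and the lowest middle cell 868. "RNA-rich" therefore means many UMIs recovered from a well, and the RNA content of a cell and the share of it captured in its well cannot be told apart. Every cell was thinned at random to 500 UMIs, which left 20000 UMIs per side on plate 2 and up to 29500 on the other plates, so weakly expressed genes could not be tested.

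The low-cycling label was checked against the S phase and G2/M gene lists. These lists took 0.594% of a thinned cell's UMIs in index groups 2 to 5 and 1.46% in the other groups, although groups 1 (0.500%), 6 (0.673%) and 7 (0.609%), which are not members, were near the members' range of 0.555% to 0.665%. By side the share was 0.642 ± 0.071% in RNA-rich and 0.519 ± 0.085% in RNA-poor cells, with RNA-rich higher on 3 of 4 plates. The S phase list alone took 0.442 ± 0.074% and 0.327 ± 0.036%, higher in RNA-rich cells on 4 of 4 plates, and the G2/M list was higher on 2 plates and lower on 1. All 38 HSC list genes in the table had a UMI on the 2 sides. Markers of other blood cells were in part detected. The erythroid list had a UMI for 8 of 9 genes (Alas2 was at 0) and held 517 to 881 CPM (counts scaled to a total of 1000000 UMIs) in RNA-rich and 814 to 1207 CPM in RNA-poor cells across plates. The myeloid progenitor list had a UMI for 6 of 8 genes (Ms4a3 and Cebpe were at 0) and held 1150 to 1862 and 1695 to 2200 CPM, lower in RNA-rich cells on 4 of 4 plates. All 9 megakaryocyte genes had a UMI, with 250 to 621 and 345 to 724 CPM. The mature B, T and NK list had a UMI for 5 of 9 genes (Cd79a, Cd3e, Cd3d and Ms4a1 were at 0) and held 400 to 1138 and 712 to 1724 CPM. Of the endothelial list 4 of 5 genes had a UMI (Cdh5 was at 0), with 50 to 305 and 50 to 138 CPM. Lymphoid progenitor genes had a UMI for 2 of 5, neutrophil genes for 1 of 7 and mast cell genes for 0 of 5. The part of these markers in the results was not tested. No well identifier occurred on more than 1 plate. Plate 2 stood apart from the other plates on both sides: for 28 of the 441 genes tested its level was under that of the lowest other plate divided by 5, among them Ifitm1, Rpl34, Rpl23, Rpl32 and Rpl4, and for no gene did another plate do so.

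At equal depth, ribosomal protein genes made up a smaller share of RNA-rich than of RNA-poor cells. Their share of the 500 UMIs was 15.4%, 15%, 16.3% and 15.8% on the RNA-rich side of plates 2, 3, 4 and 5, and 18.8%, 18.9%, 20.4% and 19.0% on the RNA-poor side. The sides did not overlap: the highest RNA-rich plate lay below the lowest RNA-poor plate. The means were 15.6 ± 0.541% and 19.3 ± 0.763%, a difference of -3.67 ± 0.42 percentage points. In the 106 wells without an index record, which held at most 502 UMIs each, the share was 17.0%, between the sides, and 25068 UMIs in all stood behind it.

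**Figure D1:**
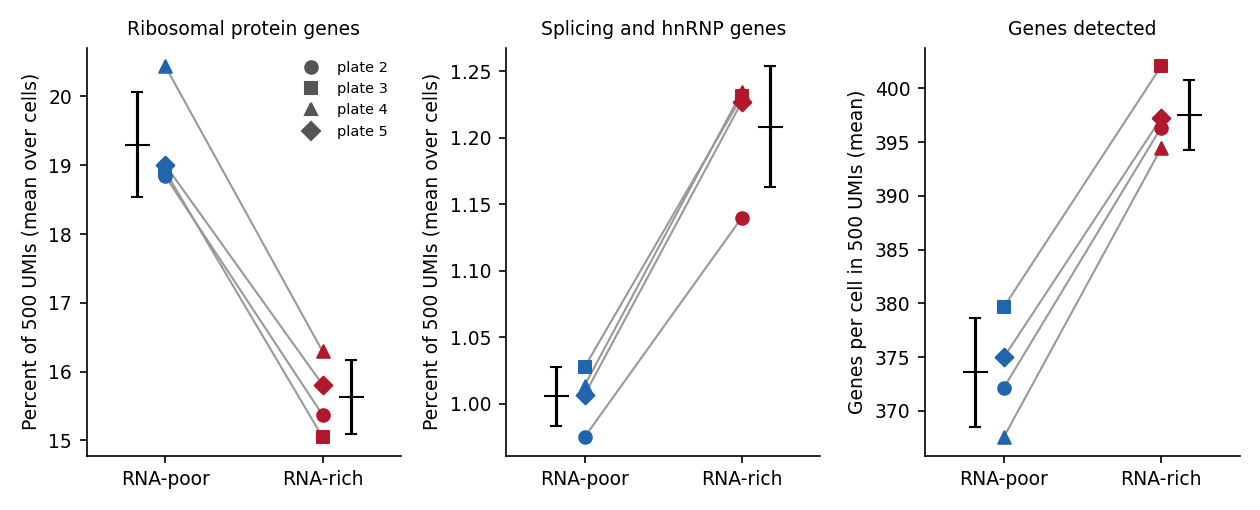
Share of 500 thinned UMIs from ribosomal protein genes and from splicing and hnRNP genes (percent), and genes detected per cell, on the RNA-poor (blue) and RNA-rich (red) side of each of 4 sort plates. Lines join the sides of 1 plate and bars are mean ± SD over plates. On each plate the ribosomal protein share was lower and the other values were higher on the RNA-rich side; the axes do not start at 0.

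Gene by gene, 25 of 441 tested genes passed between the sides (5.67%; edgeR's quasi-likelihood test with plate as a block and Benjamini-Hochberg adjusted p under 0.05), and 62 had an unadjusted p under 0.05. Of these, 5 rose in RNA-rich cells (1.13% of the genes tested) and 20 fell (4.54%). Ribosomal protein genes were 14 of the 20 that fell. On that list, 14 of 43 tested genes fell, 0 rose, and 36 of 43 had a log2 fold change below 0, with a median of -0.31. Over all 441 genes the median was -0.0048 and 221 lay below 0. Of the 25 called genes, 21 moved one way on 4 of 4 plates, and for 7 the 4 plates of each side did not overlap, against 19 of all 441 genes (4.31%). The 25 were chosen by their difference between the sides, which favours genes that move alike on the plates. No count over all 441 genes stands beside the 21, so nothing is read from it. Each gene's own UMIs also help to place a cell on a side. When cells were ranked on the UMIs of other genes, 15 of 415 genes passed (3.61%), 10 lower (2.41%) and 5 higher (1.2%), and 13 of these 15 were among the 25. Without the plate as a block 0 genes passed by edgeR (34 at an unadjusted p under 0.05), DESeq2 called 0 (22 at an unadjusted p under 0.05), and 5 other random draws of the 500 UMIs gave 14 to 24 genes, 10 to 16 of them among the 25. In 5 of 5 other draws Calr, Ifitm1, Rplp1, Rps14 and Rps9 passed, while Pfdn5, Rpl4, Rps26, Use1 and Vim passed in 0 of 5 and Atpase6 and Hsp90ab1 in 1 of 5. Leaving out 1 plate gave as few as 9 genes (without plate 4), and leaving out cells with 1% or more S and G2/M UMIs gave 5 of 261 genes, 3 higher and 2 lower. When ribosomal protein genes were removed before totals and tests, a setting added after the data were seen, 1 of 364 genes passed, Lrrc58.

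The acidic ribosomal stalk protein gene Rplp1 had the smallest adjusted p. On plates 2, 3, 4 and 5 it stood at 18500, 14310, 14034 and 14475 CPM in RNA-poor cells and at 13600, 10103, 12448 and 10983 CPM in RNA-rich cells. Each RNA-rich value lay below each RNA-poor value. The fold change was -0.35 ± 0.07 (log2, edgeR SE; edgeR adjusted p = 5.15e-05), and -0.26 ± 0.07 with cells ranked on other genes (edgeR adjusted p = 0.00464).

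Small-subunit genes fell by similar log2 amounts. Rps9 went from 13850, 9241, 11276 and 10407 CPM to 9600, 7897, 8034 and 8034 CPM on plates 2, 3, 4 and 5 (log2 fold change -0.38 ± 0.08, edgeR adjusted p = 0.00011, and 0.00107 ranked on other genes). It was lower on every plate, while the sides overlapped through plate 2. Rps21 went from 8300, 6586, 7517 and 5390 to 5650, 4655, 4759 and 4644 CPM (-0.46 ± 0.09, edgeR adjusted p = 0.000132, and 0.00287 ranked on other genes). Rps14 went from 13800, 11414, 11966 and 10814 to 12100, 8034, 8724 and 9119 CPM (-0.33 ± 0.07, edgeR adjusted p = 0.000498, and 0.00818). Both were lower on 4 of 4 plates, with overlapping sides, plate 2 again being the highest.

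Rpl34, whose table entry also names its pseudogene Rpl34-ps1, so that the gene and the copy cannot be told apart, had a fold change of -0.59 ± 0.13, the largest among the called ribosomal protein genes (edgeR adjusted p = 0.000374). On plates 3, 4 and 5 it went from 5172, 4931 and 4678 to 3310, 3379 and 3017 CPM. On plate 2 it stood at 150 CPM on both sides, so this gene's call rests on plates 3, 4 and 5. Rpl41, which encodes a very short ribosomal protein, went from 5700, 4552, 6483 and 4373 to 4550, 2759, 3897 and 3695 CPM, lower on every plate (-0.49 ± 0.11, edgeR adjusted p = 0.000374). Both passed with cells ranked on other genes too (edgeR adjusted p = 0.00107 for each).

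The ribosomal protein genes that fell also included Rpl13 (-0.52 ± 0.14), Rpl23 (-0.52 ± 0.12), Rps3a (-0.40 ± 0.10), Rpl32 (-0.34 ± 0.10), Rpl4 (-0.33 ± 0.09), Rps26 (-0.31 ± 0.10) and Rps15 (-0.29 ± 0.09), with edgeR adjusted p between 0.00139 for Rpl23 and 0.0321 for Rps26. Each was lower on 4 of 4 plates except Rps26, which was higher in RNA-rich cells on plate 2. Of these, Rpl23 passed with cells ranked on other genes (edgeR adjusted p = 0.0258), and the others did not, with values from 0.057 for Rps26 and Rps15 to 0.143 for Rps3a. Ribosomal protein genes have many near-identical pseudogene copies, and no source used here tells how the counting assigned their reads.

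The calls of Rplp1, Rps9, Rps14, Rps21, Rpl34 and the gene Lrrc58, described further on, held without any 1 plate. Leaving out plate 4 ended those of Rpl41 (edgeR adjusted p = 0.0820), Rpl23 (0.0999) and Rps3a (0.109), and leaving out plate 3 or 4 that of Rpl4 (up to 0.0955). The Rpl13 call ended without plate 2, 3 or 4 (up to 0.124), that of Rps15 without plate 2, 4 or 5 (up to 0.109), that of Rps26 without plate 3, 4 or 5 (up to 0.503), and that of Rpl32 without any 1 of the plates (up to 0.185). No direction changed.

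**Figure D2:**
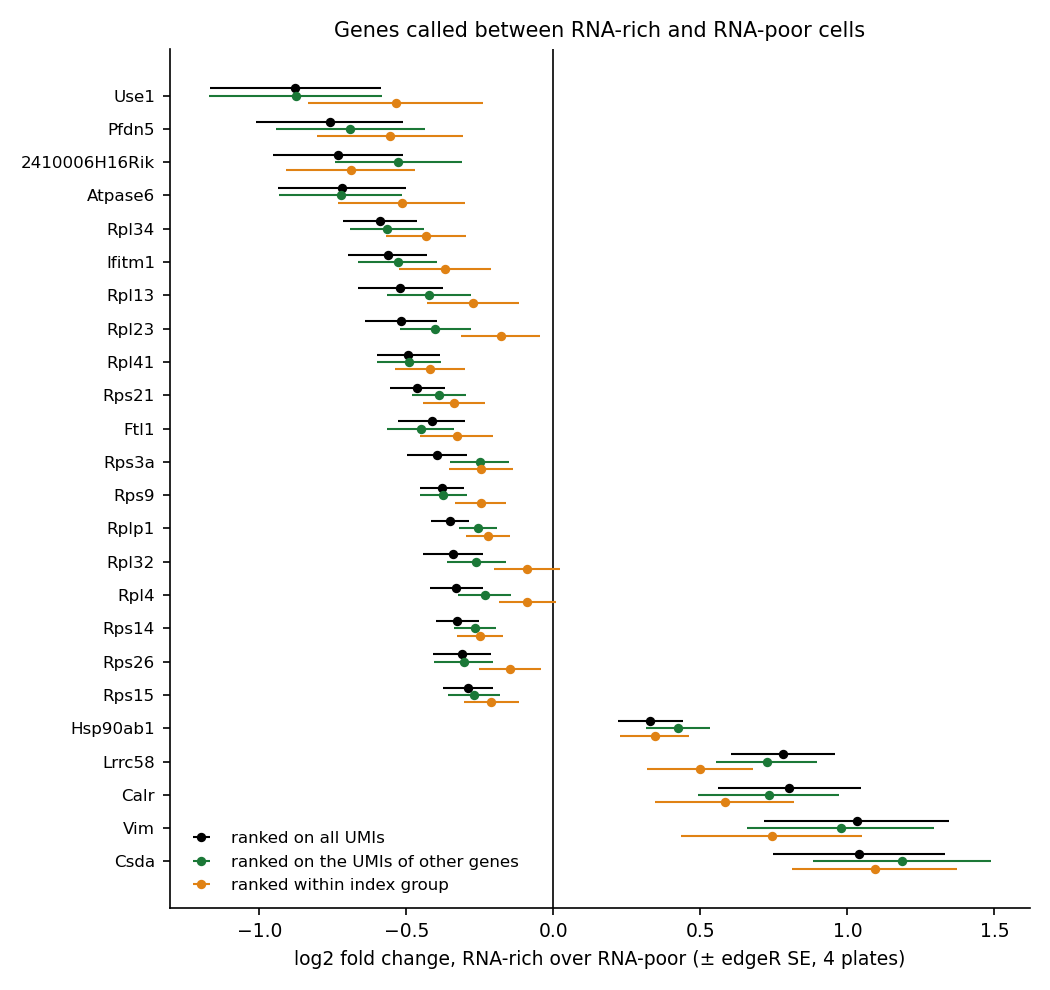
The log2 fold change, RNA-rich over RNA-poor, of 24 of the 25 called genes (dots, with bars of ± 1 edgeR SE, 4 plates), with cells ranked on all UMIs (black), on the UMIs of other genes (green) or within their index group (orange). All 24 kept their sign in the orange ranking, where 22 had a smaller size.

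The start regions of 4 of these genes and of 2 genes that rose are printed to show where short pyrimidine runs lie near the listed start. The 4 were chosen because they hold such a run. The windows of Rpl23, Rpl41, Rps15, Rps26, Rps3a and Rps9, which fell too, hold none and are not printed. The print is therefore no comparison of genes that fell with genes that rose. Windows of 50 bases, 40 before to 10 after the transcription start, were taken from RefSeq's mouse assembly GRCm38.p6, on the gene's strand. Capitals mark matches to the letters CTTTC, to the letters CTTTT and to the letters CTTCC, which can overlap each other. Only these strings were searched for, so other pyrimidine runs are not marked. The window of Rps9, for example, holds a run of pyrimidines across the listed start but no match. The listed start is base 41 of each window.

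Rpl4, chr9:64173347-64173396, plus strand: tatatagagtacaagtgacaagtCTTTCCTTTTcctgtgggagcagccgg

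Rpl13, chr8:123102310-123102359, plus strand: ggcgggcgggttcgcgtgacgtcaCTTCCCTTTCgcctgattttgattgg

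Rps21, second of its listed starts (the first holds no match), chr2:180257409-180257458, plus strand: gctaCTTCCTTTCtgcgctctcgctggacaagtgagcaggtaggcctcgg

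Rpl34, chr3:130730328-130730377, minus strand: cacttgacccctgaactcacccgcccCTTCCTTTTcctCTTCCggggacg

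Calr, chr8:84846922-84846971, minus strand: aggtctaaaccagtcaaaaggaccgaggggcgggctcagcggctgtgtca

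Lrrc58, chr16:37868360-37868409, plus strand: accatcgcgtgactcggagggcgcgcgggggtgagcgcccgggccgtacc

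The marked runs of Rpl4 (bases 24 to 33), Rpl13 (25 to 34) and Rps21 (5 to 13) end before the listed start. They are therefore not the first bases of the listed transcripts. The marked stretches of Rpl34 (27 to 35 and 39 to 43) are joined by the pyrimidines cct. They are parts of 1 unbroken pyrimidine run that reaches across the listed start. Another listed start of Rpl34 (chr3:130730389-130730438), not printed, holds runs at bases 29 to 33 and 42 to 46, the latter just after the start. Calr and Lrrc58 rose in RNA-rich cells and their windows hold no match. Of the 14 ribosomal protein genes that fell, 10 were matched and 4 of them (40%) had a match on the gene's strand in at least 1 window. The share was 38.1% (8 of 21 matched) among ribosomal protein genes that did not pass, 29.4% among all genes tested and 24.4% among all 27025 genes of the promoter table. On the opposite strand the shares were 30%, 19%, 27.5% and 24.1%. Of the genes that rose, 0 of 4 matched genes had a match on their own strand and 2 of 4 on the opposite one.

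Outside the ribosome, 6 genes fell. Ifitm1, an interferon-inducible membrane gene that is also on the HSC list, went from 3897, 3690 and 5220 CPM in RNA-poor to 2690, 2897 and 2915 CPM in RNA-rich cells on plates 3, 4 and 5. On plate 2 it was at 300 CPM on both sides. The fold change was -0.56 ± 0.13 (edgeR adjusted p = 0.00153, and 0.00464 with cells ranked on other genes), and the call ended without plate 5 (edgeR adjusted p = 0.144). Ftl1, the ferritin light chain of iron storage, went from 5050, 3897, 4793 and 4305 to 3550, 3069, 3552 and 3119 CPM on plates 2, 3, 4 and 5, with sides that did not overlap (-0.41 ± 0.11, edgeR adjusted p = 0.00975, and 0.00464 ranked on other genes). That call ended without plate 2 or 4 (up to 0.0885).

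Atpase6, an older name that RefSeq links to a nuclear copy of the mitochondrial ATP synthase gene mt-Atp6, so that the 2 cannot be told apart, went from 1550, 3483, 759 and 678 to 1000, 1966, 517 and 339 CPM. It was lower in RNA-rich cells on every plate, and the plates differed among themselves more than the sides did (-0.72 ± 0.22, edgeR adjusted p = 0.0223, and 0.018 ranked on other genes). In wells without a record Atpase6 stood at 5984 CPM, above both sides. These wells held at most 502 UMIs and recorded wells at least 511. Whether the wells without a record held cells or background is not stated, and a part of background in this result was not tested. Leaving out plate 2, 3 or 4 ended the call (up to 0.43).

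The calls of Pfdn5 and Use1 were made in the draw of UMIs used here and in 0 of 5 other draws. Pfdn5, a subunit of the actin and tubulin co-chaperone prefoldin, fell by 0.76 ± 0.25 on the log2 scale, from 1850, 931, 1000 and 949 to 850, 448, 724 and 644 CPM, with no overlap. The entry 2410006H16Rik;Snord65, a non-coding host transcript with its small nucleolar RNA, went from 1300, 1345, 1414 and 1593 to 1200, 862, 621 and 780 CPM, also without overlap (-0.73 ± 0.22, edgeR adjusted p = 0.0223). Use1, a SNARE protein gene of vesicle return to the endoplasmic reticulum, went from 1000, 448, 1069 and 576 to 300, 448, 276 and 542 CPM (-0.88 ± 0.29), lower on 3 of 4 plates and equal on plate 3. For Pfdn5 and Use1 the edgeR adjusted p was 0.0468 each. Ranked on other genes these 3 did not pass (edgeR adjusted p = 0.0975, 0.158 and 0.0613), and without 1 plate their highest adjusted p was 0.472 for Pfdn5 (its call ended without plate 2, 3 or 4), 0.342 for 2410006H16Rik (without plate 3, 4 or 5) and 0.564 for Use1 (without plate 2 or 4).

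The 5 genes that rose in RNA-rich cells encode a cold shock protein, an intermediate filament, chaperones and a leucine-rich repeat protein. Lrrc58 went from 2150, 759, 1138 and 1322 CPM in RNA-poor to 2950, 1586, 1897 and 2407 CPM in RNA-rich cells on plates 2, 3, 4 and 5. It was higher on every plate, and the sides overlapped through plate 2. The fold change was 0.78 ± 0.18 (edgeR adjusted p = 0.000697, and 0.00287 ranked on other genes).

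Csda, listed by RefSeq as Ybx3, a cold shock domain protein that binds DNA and RNA, had the largest rise. It went from 300, 483, 276 and 407 to 850, 655, 793 and 746 CPM, and each RNA-rich value lay above each RNA-poor value (1.04 ± 0.29, edgeR adjusted p = 0.0117, and 0.00464 ranked on other genes). There were 81 UMIs of it on the RNA-rich and 40 on the RNA-poor side in all. Vim, the intermediate filament protein vimentin, went from 450, 207, 310 and 271 to 750, 621, 724 and 373 CPM (1.03 ± 0.31, edgeR adjusted p = 0.0224), with 65 against 32 UMIs. It was higher on every plate, while the sides overlapped, and it passed in 0 of 5 other draws of the UMIs and in 4 of 23 alternative settings.

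Calr, the calcium-binding chaperone of the endoplasmic reticulum that also serves the loading of MHC class I, went from 850, 517, 655 and 780 to 1650, 1241, 1000 and 983 CPM without overlap (0.80 ± 0.24, edgeR adjusted p = 0.0223). The cytosolic chaperone gene Hsp90ab1 went from 4600, 3034, 3759 and 3729 to 4950, 4621, 4448 and 4475 CPM, higher on every plate with an overlap through plate 2 (0.33 ± 0.11, edgeR adjusted p = 0.0468). Ranked on other genes, Hsp90ab1 passed (edgeR adjusted p = 0.00475) and Calr and Vim did not (0.057 each). Without 1 plate, the calls of Csda (plate 2 or 4, edgeR adjusted p up to 0.122), Vim (plate 2, 3 or 4, up to 0.173), Calr (plate 2, 3 or 4, up to 0.25) and Hsp90ab1 (plate 3, 4 or 5, up to 0.325) ended.

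The middle of the range of UMIs per cell was described as well. With the low-cycling cells of a plate divided into quartiles by UMIs, the means over plates of 17 of the 25 called genes were ordered from the lowest to the highest quartile, and for 24 of 25 the middle quartiles lay between the outer ones. Rplp1 stood at 15330, 13526, 13152 and 11784 CPM from the quartile with the fewest UMIs to that with the most. Lrrc58 stood at 1342, 1821, 1822 and 2210 CPM. Csda, at 366, 457, 416 and 761 CPM, was not ordered: its highest level was in the top quartile and the other quartiles lay close together. Calr, at 701, 1130, 828 and 1219 CPM, and Use1, at 773, 506, 772 and 392 CPM, were not ordered either. Over all 441 genes tested, 65 were ordered (14.7%) and 123 had their middle quartiles between the outer ones (27.9%). The outer quartiles chose the called genes, and a wide gap between these leaves more room for the middle ones, so nothing is read from these counts.

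**Figure D3:**
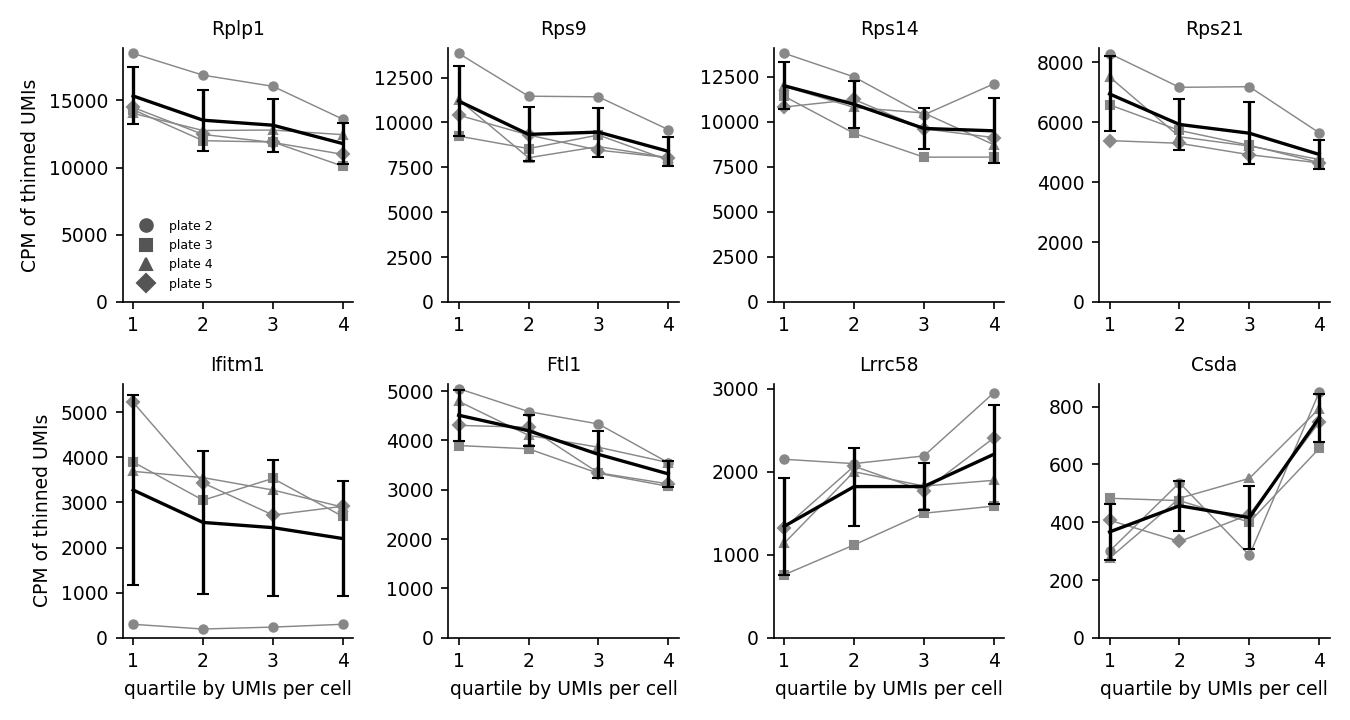
CPM of 8 called genes in thinned low-cycling cells by quartile of UMIs per cell (1, fewest; 4, most), for each of 4 sort plates (grey) and as mean ± SD over plates (black). The Ifitm1 level of plate 2 lies near 300 CPM on both outer quartiles, and Csda is high in the top quartile.

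All list shares are parts of the same 500 UMIs, so the lower ribosomal protein share leaves more UMIs to other genes in RNA-rich cells. The shares given here were not corrected for this. Some lists share genes, a share can move one way on 4 plates by chance, and the counts of lists were not tested. Of 30 other lists with a UMI, the share was higher in RNA-rich cells on 4 of 4 plates for 7, lower on 4 of 4 plates for 4, and neither for 19. Among those 19 were glycolysis, the proteasome, replacement histones, immediate early genes and the mitochondrial ribosome and import, each higher on 2 plates and lower on 2, and translation elongation (higher on 1 plate) and nucleolus and translation initiation (higher on 3). Of 11 tested splicing and hnRNP genes, which process and package nuclear RNA, 0 passed by edgeR or DESeq2, 10 had a fold change above 0 and the median was 0.46. Their share was 1.21 ± 0.046% in RNA-rich and 1.01 ± 0.022% in RNA-poor cells, higher by 0.165, 0.203, 0.221 and 0.220 percentage points on plates 2, 3, 4 and 5. The sides did not overlap in this share. Of 10 heat shock and chaperone genes, 1 rose (Hsp90ab1), with a median of 0.22, and the share was 1.16 ± 0.024% against 0.989 ± 0.072%. Of 15 actin cytoskeleton genes, 1 rose (Vim, an intermediate filament gene and not actin), with a median of 0.30, and the share was 2.38 ± 0.208% against 2.08 ± 0.238%, higher on 4 of 4 plates with overlapping sides.

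Growth and G1 genes had 0 of 5 called, a median of 0.16 and a share of 0.442 ± 0.058% against 0.354 ± 0.045%. The same single gene, Calr, was the call of both the MHC class I list (1 of 7, median 0.22) and the secretory pathway list (1 of 7, median -0.086). Shares of these 3 lists were higher in RNA-rich cells on 4 of 4 plates. Calr alone went from a mean of 701 CPM in RNA-poor to 1219 CPM in RNA-rich cells. In the mean over plates, this was the larger part of the rise in the MHC class I (0.099 percentage points) and secretory pathway (0.091) shares.

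Lower on 4 of 4 plates were the shares of redox, oxidative phosphorylation, HSC and myeloid progenitor genes. Redox genes took 1.47 ± 0.091% of RNA-rich and 1.72 ± 0.124% of RNA-poor UMIs, with 1 of 12 fallen (Ftl1, known for iron storage) and a median fold change of -0.16. Nuclear genes of oxidative phosphorylation took 2.55 ± 0.155% and 2.80 ± 0.184%, with 0 of 35 called by edgeR or DESeq2, 27 of 35 below 0 and a median of -0.17. HSC genes took 1.27 ± 0.274% and 1.40 ± 0.308%, with 1 of 12 fallen (Ifitm1) and a median of 0.077. Of these 12, 8 had a fold change above 0. On plates 3, 4 and 5 most or all of the list's fall lay in Ifitm1. On plate 2 Ifitm1 was at 300 CPM on both sides, and the list differed by -0.115 percentage points without it. The stem cell genes Hlf (0.11 ± 0.33), Mllt3 (0.08 ± 0.40), Kit (0.66 ± 0.41) and Pdzk1ip1 (-0.48 ± 0.27) did not pass, and were chosen here as known HSC genes after their values were seen. Myeloid progenitor genes took 0.145 ± 0.032% and 0.203 ± 0.023%. Of the S phase list, whose share was higher on 4 of 4 plates, 1 gene could be tested (Mcm6, a helicase subunit of DNA replication, 0.63 ± 0.43, edgeR adjusted p = 0.58) and of the G2/M list 0, so cell-cycle genes were too sparse for a test per gene.

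RNA-rich cells carried a wider set of genes in the same number of UMIs. The mean number of genes detected in 500 UMIs was 396, 402, 394 and 397 in RNA-rich and 372, 380, 368 and 375 in RNA-poor cells on plates 2, 3, 4 and 5. The sides did not overlap, and the difference was 23.9 ± 2.1 genes. A two-sided exact permutation test that flips the sign of plate differences gave p = 0.13 (1 in 8), which is as small as 4 plates allow, so this test cannot reach 0.05. Among 300 UMIs of genes other than ribosomal protein genes, the numbers were 271 ± 1.72 and 264 ± 2.22, a difference of 6.39 ± 1.04 that was positive on 4 of 4 plates. Fewer genes can be detected in 300 than in 500 UMIs, so the size of this difference cannot be set against that at 500 UMIs.

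Whole UMI sums, without thinning, allowed 1184 genes to be tested, though the RNA-rich sums are then the deeper ones. Of these, 38 passed by edgeR (3.21%), 6 higher (0.507%) and 32 lower (2.7%) in RNA-rich cells, and 22 were among the 25. The ribosomal protein list then had 22 of 45 genes lower, 0 higher and a median of -0.31. Among the added genes, chosen here after their values were seen, were the glutathione transferase gene Gstm1 (-0.84 ± 0.18, edgeR adjusted p = 0.00308), the MHC class I light chain B2m (-0.90 ± 0.22, 0.0153), the chromatin remodeller Chd4 (0.64 ± 0.18, 0.0371), the tropomyosin gene Tpm3 (0.68 ± 0.20, 0.0475) and the mitochondrial leucyl-tRNA synthetase gene Lars2 (1.52 ± 0.32, 0.00283). B2m stood at 1715 CPM in wells without a record, above 278 ± 267 CPM in thinned RNA-rich and 584 ± 460 CPM in thinned RNA-poor cells. Whether these wells held cells or background is not stated, and a part of background was not tested.

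The sides differed in the index groups they held. Group 2 made up 4.48 ± 1.89% of RNA-rich and 19.8 ± 8.70% of RNA-poor cells, and group 3 9.17 ± 2.00% and 26.6 ± 4.51%. Group 4 made up 50.9 ± 10.2% and 28.8 ± 14.3%, and group 5 35.5 ± 9.41% and 24.8 ± 6.87%. Each of the 4 shares moved one way on 4 of 4 plates (exact sign-flip permutation p = 0.13 each, again 1 in 8). With cells pooled over plates, and so without a spread between plates, the ribosomal protein share was lower in RNA-rich cells of every group. It was 17.2% (10 cells) against 20.9% (44 cells) in group 2 and 17.2% (20 cells) against 20.5% (58 cells) in group 3. It was 15% (108 cells) against 18% (58 cells) in group 4 and 16.0% (77 cells) against 18.3% (55 cells) in group 5.

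When the sides were taken within each plate and index group, the ribosomal protein share differed by -2.68 percentage points and the genes detected by 20.1. In that ranking 0 of 410 genes passed by edgeR (50 at an unadjusted p under 0.05). All 25 genes kept their sign, and the median ratio of their fold change to that of the ranking over a whole plate was 0.72. The fold changes were -0.22 ± 0.07 for Rplp1, -0.25 ± 0.08 for Rps14, 0.50 ± 0.18 for Lrrc58 and 1.09 ± 0.28 for Csda, with edgeR adjusted p of 0.193, 0.163, 0.227 and 0.151. Rpl32 (-0.09 ± 0.11) and Rpl4 (-0.09 ± 0.10) kept the least.

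The cytometer record, which the choice of sides did not use, differed between them. Values were ranked from 0 to 100 among the low-cycling cells of a plate, and the median rank of each side was taken. For CFP the median rank of RNA-rich cells was 20.7, 16.4, 22.95 and 26.8 points above that of RNA-poor cells on plates 2, 3, 4 and 5, a mean of 21.7 ± 4.34. Side scatter area, a measure of granularity, was 13.6 ± 3.18 points higher, forward scatter width 13.3 ± 5.59 and forward scatter area, a measure of cell size, 8.80 ± 5.27. On the record's own scale, forward scatter area had a median of 597, 596, 595.5 and 588 in RNA-rich and 594, 581.5, 572.5 and 576 in RNA-poor cells, a small shift that was upward on every plate.

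Higher on 4 of 4 plates too were the channels named DAPI (20.1 ± 9.19 points), PE-Cy7 (13.8 ± 8.13), PE-Cy5 (9.73 ± 4.53) and PE (9.47 ± 7.87), side scatter height (10.8 ± 1.10), side scatter width (9.48 ± 6.89) and forward scatter height (3.76 ± 3.84). No antibody is named beside a dye, so no surface marker can be read from these. For each of these 11 channels the p by the same exact permutation test was 0.13 (1 in 8), and 0.17 after Benjamini-Hochberg adjustment over all 15 recorded channels. The channels of APC (1.82 ± 13.6), Alexa Fluor 700 (-1.97 ± 11) and APC-Alexa Fluor 750 (5.81 ± 10.0) were higher on 2 of 4 plates, and the sort time was higher on 3 of 4 (8.23 ± 10.7).

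**Figure D4:**
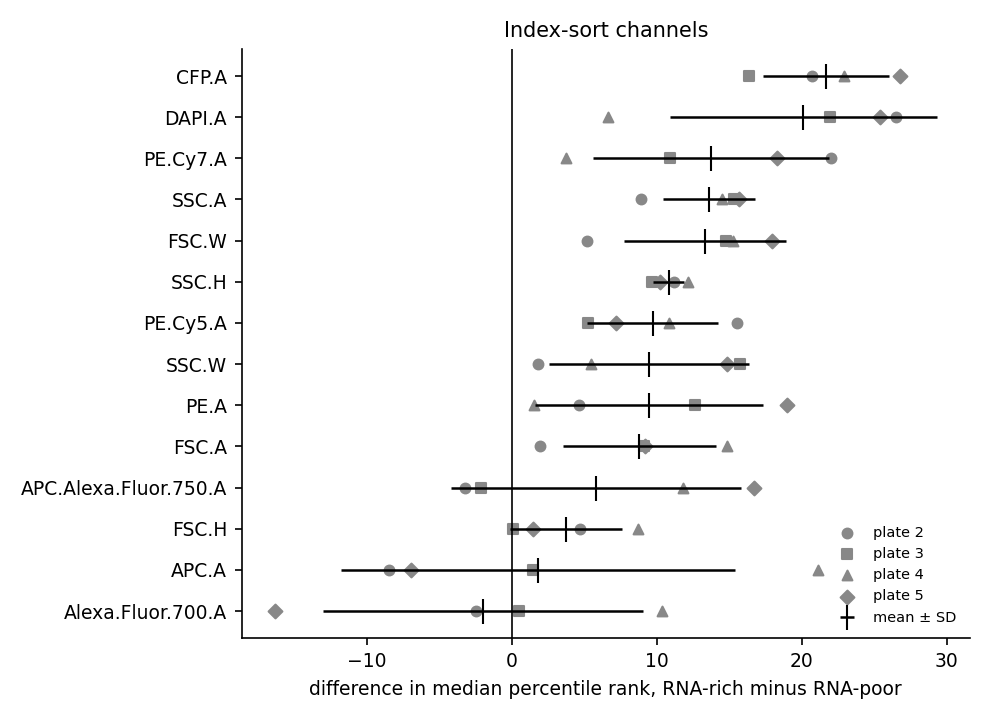
Difference in median within-plate percentile rank, RNA-rich minus RNA-poor, of 14 index-sort channels. Grey symbols are the 4 sort plates and black bars mean ± SD; all plates lie above 0 for 11 channels and on both sides of 0 for APC, Alexa Fluor 700 and APC-Alexa Fluor 750.

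The same contrast was set against that of the other 561 recorded cells, ranked and thinned alike, with 139 cells on each side. Their own contrast gave 45 of 399 genes (11.3%), 17 higher (4.26%) and 28 lower (7.02%). All 25 genes called in low-cycling cells had the same sign there, 17 of them passed there too, and for 0 of the 25 did the difference between the classes pass. No count of kept signs over all 399 genes stands beside this. Of the 25, 14 are ribosomal protein genes that all fell, so the 25 signs are not separate observations. For the 39 ribosomal protein genes tested in both, the median fold change was -0.27 in low-cycling and -0.44 in other cells, and 0 of them passed the test of the difference. Over all genes the medians were 0.0085 and -0.011.

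The difference of the contrast passed for 3 of 399 genes (0.752%; edgeR interaction test, 30 at an unadjusted p under 0.05). The linker histone gene Hist1h1b, made in S phase, stood at 158 ± 99.7 CPM in RNA-poor and 102 ± 1.65 CPM in RNA-rich low-cycling cells, and at 348 ± 155 and 1524 ± 671 CPM in the other cells, a difference of -2.83 ± 0.65 (edgeR adjusted p = 0.0184). This rested on 18 UMIs in RNA-poor and 11 in RNA-rich low-cycling cells, against 23 and 107 in the other cells. Hist1h1b was not among the 441 genes tested in low-cycling cells alone and entered this test through its level in the other cells, so nothing about low-cycling cells is read from it. The tubulin gene Tuba1b stood at 1065 ± 203 and 1191 ± 183 CPM against 1405 ± 250 and 3299 ± 224 CPM (-1.04 ± 0.26, edgeR adjusted p = 0.0276). The elongation factor gene Eef2 stood at 3574 ± 718 and 3642 ± 274 CPM against 3992 ± 1072 and 2531 ± 502 CPM (0.74 ± 0.18, edgeR adjusted p = 0.02). In the low-cycling cells of this fit none of the 3 passed (edgeR adjusted p = 0.699 each).

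These 3 calls depended on single plates. The edgeR adjusted p of Hist1h1b was 0.195 without plate 4 and 0.52 without plate 5, with differences of -2.50 and -2.27. Tuba1b was at 0.0814, 0.552 and 0.195 without plates 2, 3 and 4, with differences of -1.07, -0.77 and -0.99. Eef2 was at 0.158, 0.195 and 0.0559 without plates 3, 4 and 5, with differences of 0.75, 0.71 and 0.78.

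**Figure D5:**
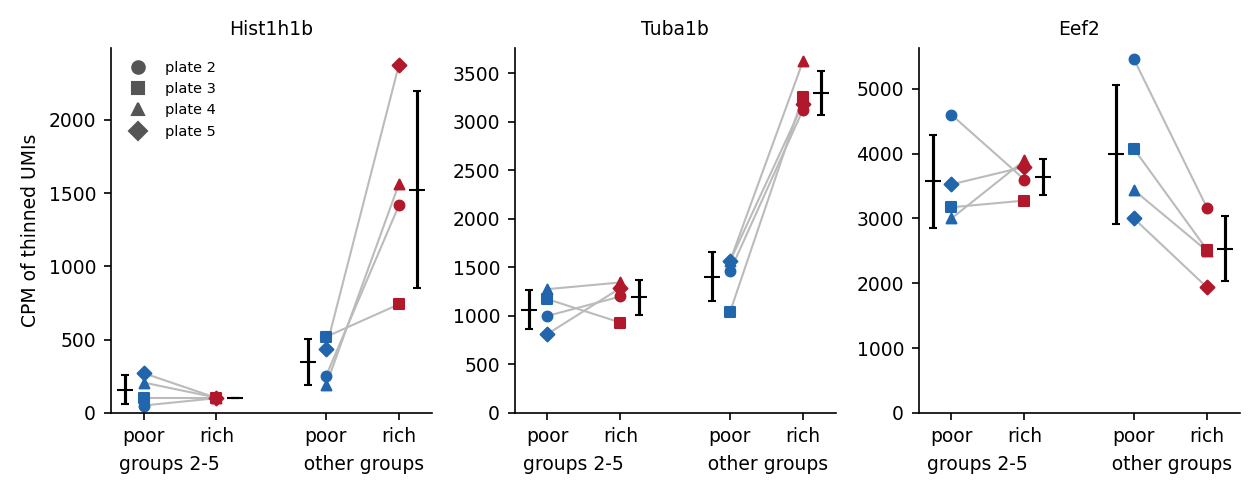
CPM of Hist1h1b, Tuba1b and Eef2 on the RNA-poor (blue) and RNA-rich (red) side of low-cycling cells (index groups 2 to 5) and of the other recorded cells, for each of 4 sort plates, with mean ± SD. Hist1h1b and Tuba1b differ between the sides mainly in the other cells, where Eef2 is lower on the RNA-rich side.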

How the data were processed

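The authors deposited raw UMI counts per gene entry and well, not normalized (27297 entries, 1536 wells), and an index-sort record. Of its channels, CFP holds log10 values of whole channel numbers and forward scatter area a linear intensity, per the file headers and the values. The other deposited channels have no stated scale and were treated as a score, used as ranks within a plate. PE, PE-Cy7 and DAPI hold spreadsheet errors in 35, 65 and 51 low-cycling cells and PE-Cy5 in 14, which were left out for that channel. What these errors stand for is not stated, and whether the cells left out were dim in that channel was not tested. The submitters' processing notes name the builds mm9 and mm10 and the tools bcl2fastq 2.15.0.4, STAR, cutadapt, featureCounts, Bismark 0.19.0 and DESeq2 without saying what each did. The path from reads to UMI counts and its build are not given in the sources used here. Bulk and bisulphite samples (16) were not analysed here.

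No doublet caller was run on these index-sorted wells. Thinned UMIs were summed per plate and side and tested with edgeR 4.0.16 in R 4.3.3 (filterByExpr, TMM, glmQLFit and glmQLFTest, plate as a block because both sides come from the same plate, Benjamini-Hochberg threshold 0.05). With 3 residual and infinite prior degrees of freedom, gene errors borrow the spread over all genes. The script was tested on simulated data. CPM are thinned UMIs scaled to a total of 1000000 per side and plate. Shares, ranks and gene numbers are means or medians over cells per plate. The S and G2/M and ribosomal protein shares given for index groups pool the cells of all plates. Alternatives were other random draws, no thinning, other fractions of a plate, DESeq2 1.42.0, no TMM, looser filters, no plate block, each plate left out, ranking on other genes (the gene table split into odd and even entries, each gene tested in the ranking it had no part in) or within index group, and cells with S and G2/M or haemoglobin UMIs left out. The called genes are named, since they number under 30, except 1 that is counted but not reported here. Members, gene lists and tests were chosen with earlier results of these data known.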

Additional observations from a re-analysis of the deposited data

Results flagged for a closer look

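Of 82 sets of 4 plate values tested with Dixon's criterion, 14 had a plate far from the others. Chance does so in about 1 set in 20. In 13 of the 14 that was plate 2. On plate 2 the level was low for Rpl34 (150 CPM on the RNA-rich and 150 CPM on the RNA-poor side, against at least 3017 and 4678 CPM on the other plates), Rpl23 (200 and 450 CPM), Rpl32 (250 and 400 CPM), Ifitm1 on the RNA-rich side (300 CPM) and Rpl4 on the RNA-poor side (1450 CPM). It was high for Pfdn5 (1850 CPM) and Rplp1 (18500 CPM) on the RNA-poor side and for Rps21 (5650 CPM) and Rps9 (9600 CPM) on the RNA-rich side. The rank difference of side scatter area was 8.90 points on plate 2, against 14.5 to 15.7 on the others. Plate 3 was low for Rps15 on the RNA-poor side (6621 CPM, against 8345 to 8576 CPM).

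For 3 genes the contrast differed between low-cycling and other cells by edgeR's interaction test, on the log2 scale: Hist1h1b (-2.83), Tuba1b (-1.04) and Eef2 (0.74). The call of each ended without at least 2 of the plates. Hist1h1b had 11 and 18 UMIs on the RNA-rich and RNA-poor side of low-cycling cells and could be tested only through its 107 UMIs in RNA-rich other cells, so nothing about low-cycling cells is read from it.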

How the results depend on the processing

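Directions held for all 25 called genes in each of the 24 alternative settings in which they were tested, while calls did not: of 585 values, 315 kept the call and 270 lost it. Most settings reuse most of the cells and UMIs by which these genes were chosen, so a kept direction says little. Without the replicate block 0 genes passed, 0 higher and 0 lower (34 at an unadjusted p under 0.05), and 0 passed for the difference between classes. DESeq2 gave 0, 0 higher and 0 lower (22 at an unadjusted p under 0.05), and its own dispersion estimate was at the minimum for 392 of 441 genes. Ranked within index group the count was 0, with 0 higher and 0 lower. The counts were 38 without thinning (32 lower), 16 with 50% of a plate in each side (0 higher), 15 ranked on other genes (10 lower), 5 with cells of 1% or more S and G2/M UMIs left out (3 higher, 2 lower) and 14 in 1 of 5 other random draws (7 lower). The higher genes numbered 3, 10 and 3 in 3 other draws, 8 and 3 with 20% and 33% of a plate, and 1 with either looser filter on low counts. In settings chosen after seeing the data, 1 of 364 genes passed with ribosomal protein genes left out (Lrrc58; 1 higher, 0 lower), and 12 genes were lower among cells of at least 750 UMIs. Leaving out 1 plate gave 9 to 20 genes, 1 to 6 higher and 8 to 14 lower. The lowest count came without plate 4.

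For the difference between classes, leaving out 1 plate gave 0 to 2 genes (0 without plate 4, 1 without plate 5), and whole UMI sums gave 12. Genes detected in 500 UMIs differed by 20.1 ranked within index group. Among 300 UMIs of genes other than ribosomal protein genes, a setting chosen after seeing the data, they differed by 6.39. Fewer UMIs hold fewer genes, so the size of this value cannot be set against those at 500 UMIs. The ribosomal protein share differed by -2.68 percentage points ranked within index group. The APC rank difference was -4.62 to 5.24 with 1 plate left out, below 0 without plate 4. That of Alexa Fluor 700 was -6.08 to 2.81 with 1 plate left out, above 0 without plate 5, and 0.78 ranked within index group. At 500 UMIs per cell, 441 of 27297 entries could be tested, which limits every list of weakly expressed genes.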
